A study of Drosophila melanogaster with 2 samples.

Results

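Translation factors are the proteins that start, extend and end the synthesis of a polypeptide on the ribosome. Their genes were taken on Affymetrix *Drosophila* arrays by name alone, as those with a current symbol, or a synonym held by no other gene, that marks an initiation (eIF), elongation (eEF) or release (eRF) factor, together with *pAbp*, *4E-T*, *Thor*, *Paip2*, *NAT1* and *Rack1*. Of 64 genes that met this rule in a RefSeq gene table, 50 had a named probe set, with 58 of the 14010 probe sets of an array. One of them, *CG7483*, entered through its synonym eIF4AIII. The other 14, among them *eEF1alpha1*, *eEF2*, *eIF2alpha*, *eIF2gamma*, *eIF4EHP* and *Thor*, were not analysed here. RNA came from *yw* embryos, a stock with *yellow* and *white* mutations that affect pigment, and from embryos homozygous for a mutation of *mid* (*midline*, a T-box transcription factor), with 1 array for each genotype. Embryos were kept on apple juice plates at 25 °C for 16 h after eggs were laid, and the *mid* homozygotes were told apart by a GFP-marked CyO balancer. The labels name no *mid* allele and no number of embryos in a sample. The labels also name *yw* as the control, whereas the Methods name heterozygous *mid* embryos, so that the mutation and the background of the stock cannot be told apart.

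Initiation begins when eIF4E binds the cap of an mRNA and, through the scaffold eIF4G, brings in the helicase eIF4A and the poly(A)-binding protein. The small ribosomal subunit arrives with eIF3 and with a ternary complex of eIF2, GTP and the initiator tRNA, and scans to the start codon. The exchange factor eIF2B then recharges eIF2 with GTP. In the early fly embryo, which lives on RNA supplied by the mother, repressors that bind eIF4E decide which maternal mRNAs are translated.

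The deposited signals were linear MAS5 intensities and were not on a common scale, their medians being 150 for *yw* and 43.3 for *mid*. Each array was centred on its median, and the *mid* signals below are those after this step, in units of the *yw* array. A floor was placed at 97.6, the 40th percentile of the pooled values, to hold back dim signals, without any detection call behind it. For genes dimmer than this in 1 genotype the fold change is a lower bound, and for those dimmer in both no fold is given. Genes with several probe sets are represented by the one with the highest mean signal. With 1 array per genotype there is no replicate check and no p-value, and the number of arrays limits the precision. Genes were called higher or lower in *mid* by size alone, past 2-fold. As a technical scale, different probe sets of the same gene were compared, using those above the floor on both arrays. Their log2 fold changes had an SD of 0.53 over 291 genes. Signals of different probe sets depend on their probes, so they are not compared between genes. Numbers in parentheses after the signals of a gene are its log2 fold change, *mid* over *yw*, unless said otherwise.

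Of the 50 translation factor genes, 43 exceeded the floor in either genotype and are called measured, and 7 were below it in both. Only *eIF4E3* was called higher in the *mid* embryos and only *4E-T* was called lower, while the other 41 measured genes lay within 2-fold. This is 1 of 43 (2.33%) in each direction. Over all 7682 measured genes, 5.65% were called higher and 4.53% lower. The median log2 fold change of the factors was 0.03, against 0.06 for all measured genes, with the middle of the distribution between -0.31 and 0.31 (quartiles), against -0.29 and 0.41 for all measured genes. In 32 of the 43 the log2 fold change was smaller than 0.5 in size (74.4%), as it was in 63.7% of all measured genes. Of the measured factors, all but 2 were above the floor on both arrays. The filter on dim signals removed 7 of the 50 named factors and 3144 of the 10826 named genes.

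**Figure D1:**
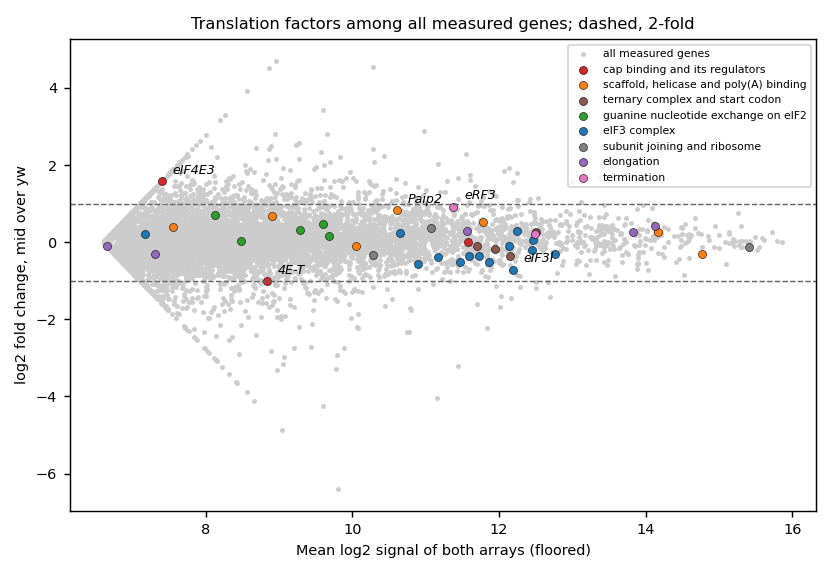
Log2 fold change, *mid* over *yw*, against the mean log2 signal of both arrays for every measured gene (grey) and for the measured translation factors (coloured by role), 1 array per genotype, with dashed lines at 2-fold. *eIF4E3* lies on the upper edge set by the floor and *4E-T* just past the lower line, and the other factors lie between the lines.

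The genes of cap binding and its control held both calls. *eIF4E3*, a paralog of the cap-binding protein gene that is known for its role in the male germ line, read 44.6 in *yw*, below the floor, and 292 in *mid*. It was thus at least 2.99-fold higher, a lower bound that the floor sets. Its log2 fold change of 1.58 became 2.71 with no floor, whereas it was not called with the floor at the 60th percentile (0.35) or with values as deposited (0.74). *4E-T*, which encodes an eIF4E-binding protein of translationally silent mRNA granules, read 647 in *yw* and 320 in *mid*, 2.02-fold lower and so barely past the threshold. Its other probe set was below the floor on both arrays, with 79.6 in *yw* and 19.5 in *mid*, and also had the lower signal in *mid*. With the median over both probe sets the log2 fold change was -0.51, and the only call of a lower factor was lost. *eIF4E1*, which encodes the main cap-binding protein of the fly, read 3058 in *yw* and 3043 in *mid* (log2 fold change -0.01). The ubiquitous factor and its paralog *eIF4E3* thus had different folds on the same arrays. The remaining paralogs were at the floor on both arrays. *eIF4E4* read 34.9 in *yw* and 42.0 in *mid*, *eIF4E5* 3.27 and 22.2, and *eIF4E6* 13.6 and 12.2. For *eIF4E7* the signals were 92.2 and 23.3 with 1 probe set and 42.3 and 45.0 with the other, so the probe sets differed in whether *mid* was the lower array. No direction is given for these 4 genes.

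Among the scaffold, helicase and poly(A)-binding genes, 7 of 8 were measured, none was called, and the median log2 fold change was 0.39. *Paip2*, which encodes a repressor that binds the poly(A)-binding protein, read 1171 in *yw* and 2084 in *mid* (log2 fold change 0.83). *NAT1*, an eIF4G-related gene of cap-independent initiation, read 378 and 602 (log2 fold change 0.67). *eIF4G1*, the main scaffold gene, read 2937 and 4226 (log2 fold change 0.52), and *eIF4G2*, a paralog needed for male meiosis, read 164 and 215 (log2 fold change 0.39). All 3 genes of the eIF4G family therefore read higher in *mid*, by less than 2-fold, under each scaling but that of values as deposited, where they read lower. *pAbp*, which encodes the poly(A)-binding protein, had a main probe set with 16714 in *yw* and 20241 in *mid*, and a second one with 2543 and 3020. Its probe sets had closely similar log2 fold changes, of 0.28 and 0.25. The helicase gene *eIF4A* read lower in *mid*, with 30990 in *yw* and 25022 in *mid* (log2 fold change -0.31). *CG7483*, whose product eIF4AIII is a helicase of the exon junction complex, read 1105 and 1025 (log2 fold change -0.11). *eIF4H2* was at the floor on both arrays, with 6.12 and 5.31.

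The array also carries control probe sets along the *eIF4A* transcript, which have no gene name in the annotation table and were not counted. The 3′ control read 35438 in *yw* and 31403 in *mid* (log2 fold change -0.17). The middle control read 11884 and 8074 (log2 fold change -0.56), and the 5′ control read 697 and 496 (log2 fold change -0.49). All 3 controls and the probe set of the gene were lower in *mid*, with folds that differed between the controls. With 1 control probe set per position, effects of position and of probe cannot be told apart. The 3′ signal divided by the 5′ signal, a ratio sensitive to RNA degradation, was 50.8 in *yw* and 63.3 in *mid* for this transcript. It was also higher in *mid* for actin (28.8 in *yw* and 53.5 in *mid*) and 18S rRNA (4.52 and 7.43), but lower for GAPDH (21.6 and 17.3). The part of RNA quality in the small differences between factors was not tested.

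**Figure D2:**
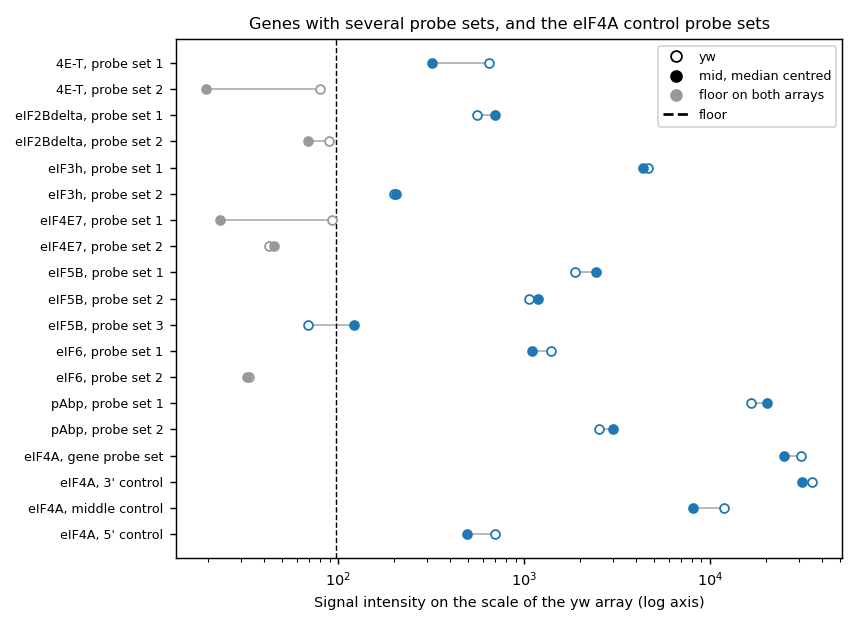
Signal intensity (log axis) in *yw* (open) and *mid* (filled, median centred) for each probe set of the 7 genes with several, and for *eIF4A* with its 3 control probe sets, 1 array per genotype. Grey points are below the floor on both arrays (dashed line at 97.6), and the probe sets whose points lie farthest apart are the dim one of *4E-T* and the first of *eIF4E7*, both below the floor.

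The eIF3 complex, the largest initiation factor, had the lowest median of any group with more than 4 members. Of its 16 genes 14 were measured, none was called in either direction, 10 had log2 fold changes below 0 and 4 above, and the median was -0.33. Against the median of all measured genes, 11 lay below and 3 above. The lowest value was that of *eIF3l*, with 5981 in *yw* and 3646 in *mid* (log2 fold change -0.71). *eIF3c* read 2316 and 1557 (log2 fold change -0.57), *eIF3b* read 3388 and 2360 (-0.52), and *eIF3g1* read 4444 and 3100 (-0.52). *eIF3a*, the gene of the scaffold subunit, read 2634 and 2006 (-0.39), *eIF3f1* read 3488 and 2730 (-0.35), and *eIF3k* read 3836 and 3011 (-0.35). *eIF3e* read 7728 and 6267 (-0.30), *eIF3m* 6016 and 5224 (-0.20), and *eIF3h* 4657 and 4378 (-0.09). The second, dimmer probe set of *eIF3h* gave 199 and 206, close to no difference.

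The subunits that carry PCI or MPN domains and join in an octamer in the human complex are eIF3a, c, e, f, h, k, l and m. All 8 of their main genes read lower in *mid*, between -0.71 and -0.09 on the log2 scale with a median of -0.35. They also read lower under every other scaling run. Each of these scalings moved the median of all measured genes downwards, by -1.58 (as deposited) to -0.07 (quantile normalisation), so they are no check on the direction. This grouping was chosen after the values were seen, and most of the differences do not reach 0.53, the SD given above. The subunits above 0 were *eIF3i* (4380 in *yw* and 5392 in *mid*, log2 fold change 0.30), the loosely bound *eIF3j* (1478 and 1748, 0.24), *eIF3f2* (134 and 155, 0.21) and *eIF3d1* (5577 and 5758, 0.05). Of the second gene copies, *eIF3f2* was above the floor. *eIF3d2* read 15.1 and 8.13 and *eIF3g2* read 10.4 and 19.2, at the floor on both arrays.

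The genes of eIF2B, the exchange factor through which stress kinases that phosphorylate eIF2 act on initiation, had a median log2 fold change of 0.32. All 5 subunit genes were measured, none was called, and all 5 had log2 fold changes above 0, as did 4210 of all 7682 measured genes. Against the median of all measured genes, 4 lay above and *eIF2Bgamma* below. *eIF2Balpha*, of the regulatory subcomplex, read 219 in *yw* and 357 in *mid* (log2 fold change 0.70). *eIF2Bepsilon*, the gene of the catalytic subunit, read 659 and 913 (0.47), and *eIF2Bdelta* read 558 and 696 (0.32). *eIF2Bbeta* read 780 and 872 (0.16) and *eIF2Bgamma* 354 and 362 (0.03). The other probe set of *eIF2Bdelta*, below the floor on both arrays, read 89.8 and 68.4 and so did not share the direction. The median of eIF3 minus that of eIF2B was -0.64 on the log2 scale, a difference that does not depend on the factor by which an array is scaled. The sign of the eIF2B genes does depend on it. With quantile normalisation or loess 4 of 5 lay above 0, with values as deposited 0 of 5 did, and only 2 of 5 did so when the arrays were scaled on 9 spiked controls, where all 14 eIF3 genes lay below 0 and the median of all measured genes moved by -0.30.

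**Figure D3:**
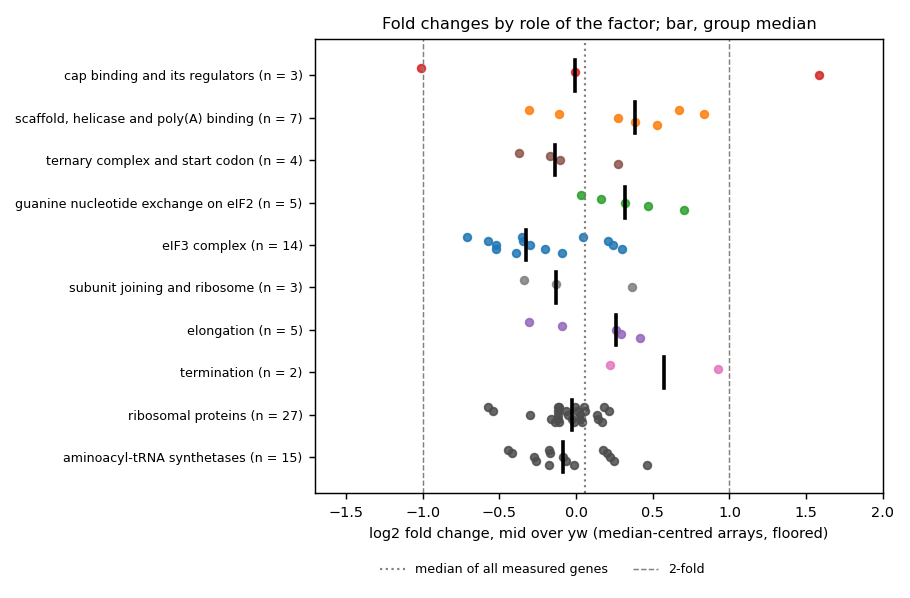
Log2 fold change, *mid* over *yw*, of each measured gene (points) by role of the factor, with ribosomal protein and aminoacyl-tRNA synthetase genes for comparison, from 1 array per genotype. Bars are group medians, the dotted line is the median of all measured genes (0.06) and dashed lines mark 2-fold, and the eIF3 median (-0.33) lies to the left of the eIF2B median (0.32).

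Of the factors that recognise the start codon, 4 were measured and none was called, with a median of -0.14. *eIF2beta*, the only subunit gene of eIF2 that could be named here, had signals of 5149 in *yw* and 3983 in *mid* (log2 fold change -0.37). *eIF1*, which keeps the scanning complex open, read 5286 and 6395 (0.27). *eIF2A* read 4180 and 3720 (-0.17). *eIF5*, the gene of the protein that stimulates GTP hydrolysis by eIF2, read 3451 and 3208 (-0.11). Of the genes that act at the joining of the ribosomal subunits, *eIF5B*, which encodes the GTPase of this step, gave 1891 for *yw* and 2433 for *mid* on its brightest probe set (0.36). Its other probe sets read 1069 and 1185, and 68.8 and 121, so all 3 had the higher signal in *mid* after median centring. *eIF6*, which encodes a protein that keeps the large subunit free, read 1395 and 1102 (-0.34), and 33.0 and 32.1 by its dim probe set. *Rack1*, the gene of a scaffold on the small subunit, read 45487 and 41454 (-0.13).

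Of 5 elongation factor genes none was called, and the median was 0.26. *eEF5*, formerly eIF5A, which encodes the hypusine-containing factor that relieves stalled ribosomes, read 15498 in *yw* and 20650 in *mid* (log2 fold change 0.41). The paper lists *eIF-5A* among its down-regulated wing development genes, and its Methods ask for a 2-fold change and a p-value. The fold here had the other sign, but it was not called and was smaller than the SD of 0.53. With values as deposited the log2 fold change of *eEF5* was -1.38, so its direction depended on whether the arrays were scaled. With scaling on the spiked controls it was 0.09. The subunits of the exchange complex of eEF1 were close to each other in fold, as *eEF1delta* read 2740 and 3360 (0.29) and *eEF1gamma* read 13279 and 15927 (0.26). *eEF1alpha2*, a paralog of the tRNA-carrying GTPase gene, read 177 and 143 (-0.30). *eEFSec*, which encodes the factor for selenocysteine, read 104 in *yw* but 92.7, below the floor, in *mid*, and was lower by at least 1.06-fold. The release factor genes were both measured. *eRF3*, which encodes the GTPase of termination, read 1931 in *yw* and 3664 in *mid* (log2 fold change 0.92, 1.90-fold). This was the highest fold change among the factors above the floor on both arrays, and just under the threshold. *eRF1*, which encodes the protein that reads stop codons, read 5328 and 6214 (0.22). Each of these release factor genes has 1 probe set, and the difference between their folds was not tested.

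**Figure D4:**
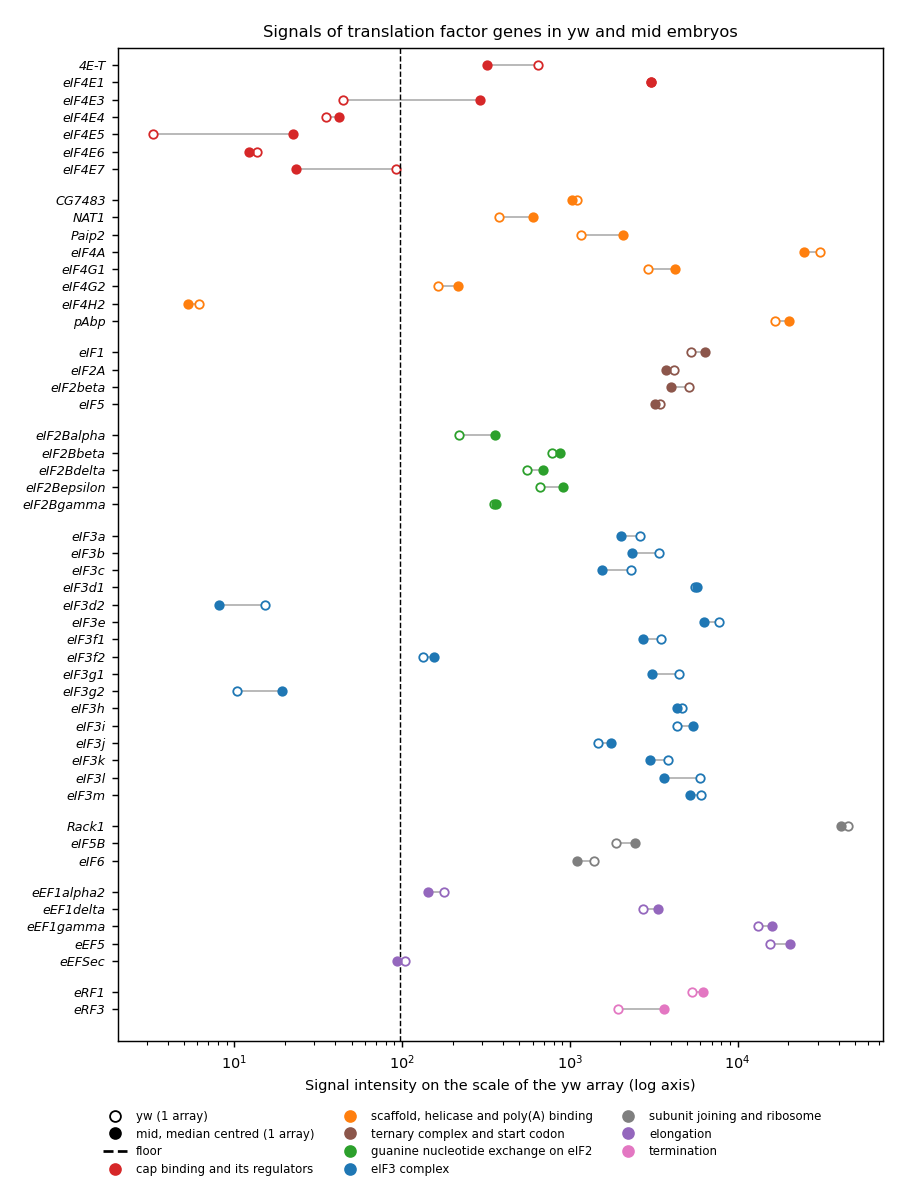
Signal intensity (log axis, scale of the *yw* array) of the 50 translation factor genes in *yw* (open) and *mid* (filled, median centred) embryos, by the brightest probe set of each gene and coloured by role, 1 array per genotype. The dashed line is the floor at 97.6, below which *eIF4E3* lies in *yw* only and 7 genes lie on both arrays.

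Other parts of the translation machinery also lay close to the median of all genes. Of 31 named cytoplasmic ribosomal protein genes 27 were measured, of which 0 were called, with a median of -0.03 and quartiles of -0.12 and 0.04. Of 16 named cytoplasmic aminoacyl-tRNA synthetase genes 15 were measured, of which 0 were called, with a median of -0.09 and quartiles of -0.22 and 0.19. Over all measured genes 5.65% were called higher and 4.53% lower, so 0 calls say little about lists this short. The distance between the quartiles was wider for the factors than for either list, and the part of signal strength in this was not tested. Below the median of all measured genes lay 22 of the 27 ribosomal protein genes and 10 of the 15 synthetase genes. With 1 array per genotype these differences were not tested.

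Genes that act on the translation factors were described from lists of known regulators. Of 14 measured genes of insulin and Tor signalling, which governs eIF4E and S6 kinase, 1 was called higher and 1 lower. This is 7.14% each way, near the 5.65% higher and 4.53% lower over all measured genes, and the median was 0.22. *REPTOR*, which encodes a transcription factor that Tor holds inactive, read 210 in *yw* and 423 in *mid*, 2.02-fold higher. *Tsc1*, an inhibitor of Tor signalling, read 207 in *yw* but 96.8, below the floor, in *mid*, a fall of at least 2.12-fold. *Sesn*, which encodes another inhibitor of Tor signalling, read 193 and 331 (0.78). *S6k* read 1449 and 1763 (0.28), and the eIF4E kinase gene *Lk6* read 1563 and 1675 (0.10). Of 5 measured genes of the eIF2 kinase and stress pathway 0 were called, with a median of 0.02. *crc*, the *Drosophila* gene of ATF4, read 11491 and 11540, and the eIF2 kinase gene *PEK* read 363 and 281. The stress-related *Atf6* had the largest difference of this list, with 194 and 294.

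Of 7 measured genes of translational repressors and RNA helicases, 1 was called lower and none higher, with a median of -0.20. Over all measured genes 4.53% were called lower and 5.65% higher, so a single call says little about so short a list. *smg*, which encodes a repressor of maternal mRNAs, had a signal of 1683 in *yw* but of 93.4 in *mid*, below the floor, and was at least 17.2-fold lower. *pum*, which encodes a repressor that binds mRNAs, read 458 and 303 (-0.60), *bel*, an RNA helicase gene, read 532 and 760 (0.52), and *me31B*, which encodes a partner of 4E-T, read 794 and 689 (-0.20). Of 11 measured genes of factor modification and ribosome recycling, 1 was called higher and none lower, with a median of 0.20. This was *Dph1*, needed for the diphthamide residue of eEF2, with 177 in *yw* and 957 in *mid*, 5.41-fold higher. The other genes of that modification did not share this size, as *Dph2* read 229 and 272, *Dph4* 102 and 190, and *Dph5* 2009 and 2022. *Dhps* and *nero*, which encode the enzymes that make hypusine on eEF5, read 194 and 223, and 482 and 410. *clu* read 321 and 595 (0.89), and *MCTS1*, a gene of ribosome recycling and reinitiation, had the largest change downwards, with 753 and 546 (-0.46).

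Markers of maternal RNA, heat shock and cell type were read on the same arrays, where 5.65% of all measured genes were called higher and 4.53% lower. Of 5 named maternal or germ line genes 3 were measured, of which 1 was called lower and none higher. This was *bcd*, which read 312 in *yw* but only 25.8 in *mid*, which makes it at least 3.20-fold lower, whereas *gcl* read 625 and 929 (0.57). *pgc* was just above the floor in *yw* (103) and below it in *mid* (41.9). The germ line markers *osk* (39.2 and 23.5) and *vas* (9.31 and 68.2) were at the floor on both arrays. All 3 named heat shock genes were called higher, from 7.03-fold for *Hsp27* to 23.4-fold for *Hsp68*. Of 3 measured neuronal genes 2 were called higher, namely *fne* (2.57-fold) and *elav* (2.23-fold), while *nSyb* was not (1.34-fold higher). The neuronal gene *brp* was at the floor on both arrays (53.7 and 43.1). Of 3 measured muscle genes 0 were called. As these are whole embryos, more cells of a type and more RNA per cell cannot be told apart. The part of embryo age, stress or tissue makeup in the folds of *4E-T*, *eIF4E3* and the other factors was not tested.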

How the data were processed

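Per the labels, total RNA of *yw* and homozygous *mid* embryos was biotinylated and put on Affymetrix arrays, 1 array per genotype. The authors deposited MAS5 signal intensity on a linear scale. The sources used here do not give the version of MAS5, its scaling target, detection calls or a genome build. An annotation table of the platform gave 12443 probe sets 1 symbol, 327 several and 1240 none, and symbols were brought up to date through a RefSeq gene table. The *mid* array was multiplied by 3.46, the ratio of the medians, a floor was set at the 40th percentile, and folds express *mid* relative to *yw* on the log2 scale.

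The Methods ask for a 2-fold change and a p-value. The latter was not computed here, since 1 array per genotype gives no replicates to test on. The members, role lists, pathway lists and markers were chosen with earlier results of these data known. Values are given for all members. Of the pathway list genes, those past 2-fold and the largest change each way were named. As examples, *S6k*, *Lk6*, *Sesn*, *crc*, *pum*, *me31B*, *Dph2*, *Dph4*, *Dph5*, *Dhps*, *nero* and *clu* were added after their values were seen. The markers *nSyb* and *brp* were added in the same way. Other markers not past 2-fold, *gcl*, *pgc*, *osk* and *vas*, were named too, while *Hsp26* and the muscle genes were only counted. Alternatives changed the scaling, floor, fold threshold or choice of probe set. The work was done in Python 3.11.15 with pandas 2.3.3 and numpy 2.4.6, loess in statsmodels 0.14.6, and plots in matplotlib 3.10.9.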

Additional observations from a re-analysis of the deposited data

How the results depend on the processing

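With values as deposited, 0 factors were called higher and 40 lower, and the median log2 fold change of the factors was -1.69 where that of all measured genes was -1.52. Of all 8430 genes measured in that setting, 19 were called higher and 6425 lower. Scaling on the spiked controls gave 1 higher and 2 lower, as *eIF3l* joined *4E-T*. It called 204 higher and 717 lower of all 7736 measured genes. Quantile normalisation, loess on mean signal (span 0.3) and an equal mean over the central 96% of signals, the last chosen after seeing the data, each gave 1 higher and 1 lower, again *eIF4E3* and *4E-T*. In that order, the calls were 375 higher and 392 lower of 7685 measured genes, 362 and 396 of 7689, and 330 and 433 of 7695. Of all calls over measured genes 55.5% were higher after median centring, 48.9% with quantile normalisation, 47.8% with loess, 43.3% with the equal mean, 22.1% with the spiked controls and 0.295% as deposited. With the floor at the 20th percentile 2 factors were lower (*4E-T* and *eIF4E7*). Of all 9623 genes measured with that floor, 880 were called higher and 901 lower. At the 60th percentile 0 were higher, as the fold of *eIF4E3* shrank to 0.35 on the log2 scale, and with no floor it was 2.71 and 2 were higher (*eIF4E3* and *eIF4E5*) and 2 lower. Of all 5288 genes measured at the 60th percentile, 228 were called higher and 166 lower. With no floor, 1217 of 10826 genes were called higher and 1416 lower. With the median over the probe sets of a gene, 0 were lower, as the dim probe set of *4E-T* enters at the floor. Of all 7685 genes measured in that setting, 378 were called higher and 320 lower. A threshold of 1.5-fold gave 5 higher and 2 lower of 43 measured factors, and 3-fold gave 0 and 0. Of all 7682 measured genes, 1281 were called higher and 987 lower at 1.5-fold, and 101 and 108 at 3-fold. The eIF3 median lay below the eIF2B median under every setting run, by -0.69 to -0.49 on the log2 scale. A single factor of scaling cannot change that difference, so it is a weak check. No paired analysis was possible because each genotype has 1 array. Depth has no counterpart here beyond the floor. Folds of single factors smaller in size than 0.53, the SD between probe sets of a gene, are within that technical spread. That SD comes from the same pair of arrays, so it holds no variation between arrays or embryos. A difference between the folds of different factors can spread more widely than that.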
